A study of Mus musculus with 4 samples.

Results

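Replication-dependent histone genes were taken as every row of the authors' deposited gene table whose symbol begins with Hist1h, Hist2h, Hist3h or Hist4h. There were 71 such rows of 37574 in the table, for 70 symbols, since Hist2h3c1 stood in 2 rows. By symbol, 6 rows were H1, 20 were H2A, 19 were H2B, 13 were H3 and 13 were H4. The rule goes by name only, so it takes in genes that are not typical of the class. Hist1h2aa, Hist1h2ba and Hist1h1t are known as testis histones, and GENCODE gives Hist1h2aj, Hist1h2al and Hist3h2bb-ps as pseudogenes.

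The RNA came from oral tumours of C57BL/6 mice that carried Bmi1CreER and a Cre-dependent tdTomato reporter and received 4NQO, a chemical carcinogen, for 26 weeks. Tamoxifen was injected 24 hours before harvest, so that Tomato marks cells in which the Bmi1 promoter drove the Cre, and their descendants over that interval. Cells positive for EpCAM, an epithelial surface protein, were then sorted by Tomato, giving Tomato-positive and Tomato-negative fractions with 2 samples each, 4 in all. Both fractions share the carcinogen, the tamoxifen, the 2 alleles and the EpCAM gate. Whether these samples stand for separate animals or for pools is not in the labels. The deposited table joins them into 1 FPKM per gene and fraction (fragments divided by the transcript's length and the library's total), so no spread between samples can be given here and the depth is unknown.

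Histones package DNA into nucleosomes, each a core of H2A, H2B, H3 and H4 with H1 bound to the linker. The replication-dependent genes lie in clusters, mostly lack introns, and are transcribed strongly in S phase under the coactivator Npat. Their mRNAs normally end in a stem-loop instead of a poly(A) tail. The stem-loop is bound by Slbp, and the pre-mRNA is cut behind it by a complex that contains the U7 small nuclear ribonucleoprotein with Lsm10 and Lsm11. Some of these genes, among them Hist1h1c and Hist1h2bc, are also known to give polyadenylated mRNA in differentiated cells. The sources used here say that a KAPA kit was used but not whether poly(A) RNA was selected, and a poly(A) selection would leave out most stem-loop mRNA.

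The stem-loop is shown because mRNAs of this class normally end in it, and it was searched for in their transcripts only. It was found in the GENCODE M21 transcripts of 45 of the 71 rows, in 6 spellings. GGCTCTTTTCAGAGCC occurred in 27 rows of H1, H2A, H2B and H3, and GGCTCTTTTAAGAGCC in 6 rows of H1, H2B and H3. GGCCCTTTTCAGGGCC occurred in 7 rows, all H4, and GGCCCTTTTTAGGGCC and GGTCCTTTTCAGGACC in 2 rows each, also H4. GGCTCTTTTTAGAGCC occurred in 1 row, Hist2h2ac. The sites of 5 members of chromosome 13 follow, 5′ to 3′, with the stem-loop in capitals and the flanking transcript in lower case.
Hist1h2bf: ccaaaGGCTCTTTTCAGAGCCaccta
Hist1h2bk: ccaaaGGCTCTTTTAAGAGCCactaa
Hist1h1d: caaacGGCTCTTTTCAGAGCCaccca
Hist1h4n: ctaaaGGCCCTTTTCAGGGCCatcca
Hist1h4b: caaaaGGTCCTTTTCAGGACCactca

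Promoters are shown because these genes share elements, some of them by type. RefSeq windows (GRCm38.p6, from 250 bases before to 50 after the start) were held for 61 of the 70 symbols, in 62 windows. In the examples below the matched motifs are in capitals on either strand, wherever they lie in the window. They are TATAAA (the TATA box), CCAAT, ATTTGCAT (the octamer of H2B promoters, bound by Pou2f1), AAACACA (the H1 box) and TCNGGTCCG (part of the element of H4 promoters that Hinfp binds).
Hist1h2bk, chr13:22035571-22035870, plus strand: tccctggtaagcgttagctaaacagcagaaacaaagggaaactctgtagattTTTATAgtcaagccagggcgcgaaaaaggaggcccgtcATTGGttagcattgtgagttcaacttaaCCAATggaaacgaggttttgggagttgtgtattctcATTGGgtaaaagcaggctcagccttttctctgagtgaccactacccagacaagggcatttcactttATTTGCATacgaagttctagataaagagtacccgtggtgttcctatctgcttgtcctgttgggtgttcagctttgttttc
Hist1h2ao, chr13:21810117-21810416, plus strand: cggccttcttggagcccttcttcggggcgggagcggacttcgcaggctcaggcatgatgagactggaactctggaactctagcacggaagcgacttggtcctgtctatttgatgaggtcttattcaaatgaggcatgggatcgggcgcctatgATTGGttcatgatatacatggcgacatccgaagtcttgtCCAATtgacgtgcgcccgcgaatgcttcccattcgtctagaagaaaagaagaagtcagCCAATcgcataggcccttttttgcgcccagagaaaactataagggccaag
Hist1h4n, chr13:21832148-21832447, minus strand: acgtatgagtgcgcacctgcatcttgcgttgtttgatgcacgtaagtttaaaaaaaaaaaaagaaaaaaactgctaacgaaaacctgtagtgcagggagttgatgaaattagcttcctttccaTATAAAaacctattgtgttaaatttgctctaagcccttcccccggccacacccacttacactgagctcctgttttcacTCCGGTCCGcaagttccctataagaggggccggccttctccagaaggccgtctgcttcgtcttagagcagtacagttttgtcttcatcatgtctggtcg
Hist1h1d, chr13:23554782-23555081, plus strand: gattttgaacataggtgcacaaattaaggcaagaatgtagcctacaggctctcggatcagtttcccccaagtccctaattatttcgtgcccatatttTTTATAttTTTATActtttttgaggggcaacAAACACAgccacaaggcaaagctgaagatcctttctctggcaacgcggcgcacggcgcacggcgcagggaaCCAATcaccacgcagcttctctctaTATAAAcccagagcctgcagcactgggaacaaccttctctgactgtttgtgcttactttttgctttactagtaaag

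CCAAT stood in 53 of the 62 histone windows, against 37.4% of all 32851 promoter windows in the RefSeq table. It was in all 17 H2A, all 17 H2B, all 10 H3 and all 6 H1 windows, and in 3 of 12 H4 windows. The octamer stood in 14 windows, 7 of 17 H2A and 7 of 17 H2B, against 1.74% of all windows. TCNGGTCCG stood in 5 of 12 H4 windows and in no window of another histone type, against 0.648% of all windows. AAACACA stood in 5 of 6 H1 windows and 9 windows of the 62, against 7.18% of all windows. TATAAA stood in 35 windows, against 13.6% of all windows. Neighbouring genes can have overlapping windows, so that 1 stretch may be counted for both, and a match need not lie where the gene's own element would. No motif search allowed mismatches, so a window without a match lacks only these letters.

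As a check of the sort, Bmi1, a Polycomb protein and the gene that drives the Cre, was at 7.03 FPKM in Tomato-positive and 3.11 FPKM in Tomato-negative cells. Its log2 ratio of Tomato-positive over Tomato-negative was 1.18, with q = 0.00109 in the authors' deposited table. Of the 71 histone rows, 63 were tested by the authors' Cuffdiff run, of 16219 tested rows in all. A gene counts here as called where the deposited q-value (the p-value adjusted over the tested genes) is below 0.05.

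Of the 63 tested histone rows 10 rose in Tomato-positive cells, which is 15.9%, against 13.0% of all tested genes. No histone row fell, against 14.2% of all tested genes. At an unadjusted deposited p-value below 0.05, 20 rows were higher, or 31.7%, against 17.8% of all tested genes. At that limit 1 row was lower, Hist2h2be with p = 0.0165 in the authors' deposited table, against 18.3% of all tested genes. The share called higher at q below 0.05 was near that of all genes, and the share higher at the unadjusted limit was above it.

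The direction of the values was more uniform than the calls. The value was higher in Tomato-positive cells for 57 of the 63 tested rows, or 90.5%, against 51.0% of all tested genes. The median log2 ratio was 0.81 over the tested histone rows and 0.01 over all tested genes. Summed over all 71 rows, histone FPKM came to 897 in Tomato-positive and 603 in Tomato-negative cells, a ratio of 1.49. Rows of this family share sequence and library, so they are not independent readings, and no p-value is given for the family. In sorted bulk RNA, more cells that express histones and more histone RNA per cell in the Tomato-positive fraction cannot be told apart.

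A ratio of at least 2-fold was common among the histones but seldom called. It was reached by 23 tested histone rows, or 36.5%, against 9.86% of all tested genes. Of those 23 rows 6 were called, whereas 71.0% of all tested genes with such a ratio were called. Among the 17 uncalled rows the highest mean FPKM of both fractions was 6.68. Among the 6 called rows this mean ran from 1.17 FPKM in Hist1h1d to 8.55 FPKM in Hist1h2bg, so the levels of called and uncalled rows overlapped. Over all tested histone rows, whatever their ratio, the median of this mean was 7.95 FPKM in the called and 4.02 FPKM in the uncalled rows.

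**Figure D1:**
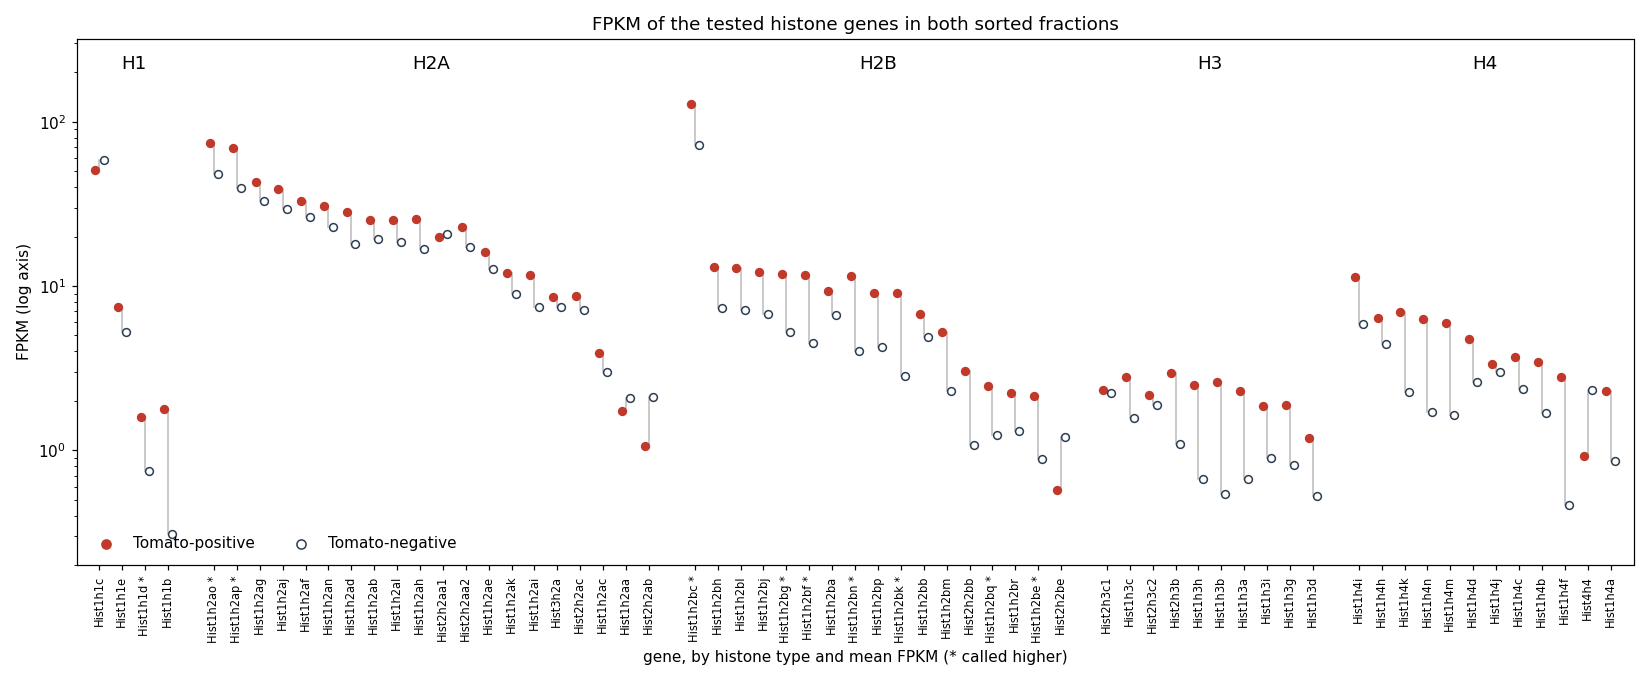
FPKM on a log axis for each of the 63 tested histone rows, with filled points for Tomato-positive and open points for Tomato-negative cells, ordered by type and by mean FPKM. The filled point is the higher of the pair in 57 rows, and an asterisk marks the 10 rows called higher.

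H2B, which pairs with H2A in the nucleosome core, held most of the calls. Of 17 tested H2B rows 7 rose, or 41.2% against 13.0% of all tested genes, and 16 had the higher value in Tomato-positive cells. The median log2 ratio was 0.99, and the summed FPKM was 251 in Tomato-positive and 135 in Tomato-negative cells. The most abundant histone row of the table was Hist1h2bc (mm9 chr13:23776067-23784357), with 128 FPKM in Tomato-positive and 72.2 FPKM in Tomato-negative cells. Its log2 ratio was 0.82, and its q in the authors' deposited table was 0.000405, the lowest q that table holds. It was 1 of 2004 genes, of 16219 tested, at the lowest deposited Cuffdiff p-value, 5e-05, so this q does not set it apart from them. Without Hist1h2bc the H2B sum was 124 FPKM in Tomato-positive and 63.2 FPKM in Tomato-negative cells, so the ratio of the sums was 1.96 without it and 1.86 with it.

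The other called H2B rows were at much lower levels, and their log2 ratios lay between 0.99 and 1.69. Hist1h2bk stood at 9.08 FPKM in Tomato-positive and 2.81 FPKM in Tomato-negative cells, with a log2 ratio of 1.69 and q = 0.0249 in the authors' deposited table. Hist1h2bn stood at 11.5 FPKM in Tomato-positive and 4.03 FPKM in Tomato-negative cells, with a log2 ratio of 1.51 and q = 0.0421 there. These were the largest ratios among the called H2B rows.
Hist1h2bf stood at 11.7 FPKM in Tomato-positive and 4.53 FPKM in Tomato-negative cells, with a log2 ratio of 1.37 and q = 0.0268 in the deposited table. Hist1h2bg stood at 11.9 FPKM in Tomato-positive and 5.23 FPKM in Tomato-negative cells, with a log2 ratio of 1.18 and q = 0.0193 there. The remaining 2 called rows were near 2 FPKM in Tomato-positive cells. Hist1h2be had 2.13 FPKM in Tomato-positive and 0.881 FPKM in Tomato-negative cells, with q = 0.0135, and Hist1h2bq had 2.45 FPKM in Tomato-positive and 1.23 FPKM in Tomato-negative cells, with q = 0.0359, both q-values from the authors' deposited table.

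The most abundant uncalled H2B rows had higher Tomato-negative values than the called rows other than Hist1h2bc. Hist1h2bh was at 13.0 FPKM in Tomato-positive and 7.30 FPKM in Tomato-negative cells, with q = 0.125 in the authors' deposited table. Hist1h2bl was at 12.8 FPKM in Tomato-positive and 7.11 FPKM in Tomato-negative cells, with q = 0.171 there. Hist2h2be was the H2B row with the lower value in Tomato-positive cells, at 0.574 FPKM, against 1.20 FPKM in Tomato-negative cells, with q = 0.0583. The H2B rows Hist3h2ba, at 0.417 FPKM in Tomato-positive and 1.12 FPKM in Tomato-negative cells, and Hist3h2bb-ps were not tested.

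H2A made up most of the histone FPKM and had the smallest median ratio among the types. By summed FPKM the ratio was 1.39 for H2A and lower, 0.951, for H1. H2A held 55.7% of the summed histone FPKM in Tomato-positive and 59.8% in Tomato-negative cells, and 8 of the 10 highest rows were H2A. Hist1h2aj and Hist1h2al, pseudogenes by GENCODE, are in these sums, and Hist1h2aj is among those 8 rows. All 20 H2A rows were tested, 2 rose (10%, against 13.0% of all tested genes), and 17 had the higher value in Tomato-positive cells. The median log2 ratio was 0.40, and no H2A row reached a 2-fold ratio. Hist1h2ao stood at 74.3 FPKM in Tomato-positive and 48.0 FPKM in Tomato-negative cells, with a log2 ratio of 0.63 and q = 0.0201 in the authors' deposited table. Hist1h2ap stood at 69.4 FPKM in Tomato-positive and 39.6 FPKM in Tomato-negative cells, with a log2 ratio of 0.81 and q = 0.00426 there. Of the next row by level, Hist1h2ag, the values were 43.0 FPKM in Tomato-positive and 32.9 FPKM in Tomato-negative cells, with q = 0.302. Hist2h2ab had the lowest ratio of the type, with 1.06 FPKM in Tomato-positive and 2.10 FPKM in Tomato-negative cells and q = 0.845.

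H3 and H4, which form the inner tetramer of the nucleosome, had higher values in nearly all tested rows but no call. For scale, 13.0% of all tested genes were called higher, and only 10 H3 and 12 H4 rows were tested. All 10 tested H3 rows had the higher value in Tomato-positive cells, with a median log2 ratio of 1.19 (0.63 with a pseudocount of 1 added to each FPKM), and 7 reached a 2-fold ratio. They were the least abundant core type, with summed FPKM of 25.0 in Tomato-positive and 12.1 in Tomato-negative cells, 2.78% and 2.01% of the histone sum. At an unadjusted p below 0.05 the count of H3 rows was also 0, against 17.8% of all tested genes higher and 18.3% lower. Hist1h3b had the largest H3 ratio, with 2.60 FPKM in Tomato-positive and 0.539 FPKM in Tomato-negative cells, a log2 ratio of 2.27 and q = 0.150 in the authors' deposited table. Hist1h3c had 2.78 FPKM in Tomato-positive and 1.57 FPKM in Tomato-negative cells (q = 0.422 there). Hist2h3c2 had 2.18 FPKM in Tomato-positive and 1.88 FPKM in Tomato-negative cells, and the tested Hist2h3c1 row had 2.32 FPKM in Tomato-positive and 2.23 FPKM in Tomato-negative cells. GENCODE M21 gives the gene ID of that Hist2h3c1 row another name, Gm20634, so its identity as an H3 gene is uncertain.

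Among the 12 tested H4 rows 11 had the higher value in Tomato-positive cells, and 6 reached a 2-fold ratio. The H4 median log2 ratio was 0.99. At an unadjusted p below 0.05, 3 of the 12 rows, Hist1h4i, Hist1h4m and Hist1h4n, were higher, against 17.8% of all tested genes. Summed H4 FPKM came to 58.6 in Tomato-positive and 29.4 in Tomato-negative cells. Hist1h4i, the highest H4 row, had 11.4 FPKM in Tomato-positive and 5.84 FPKM in Tomato-negative cells, with q = 0.0665 in the authors' deposited table. Hist1h4k had 6.96 FPKM in Tomato-positive and 2.27 FPKM in Tomato-negative cells (q = 0.232), and Hist1h4h had 6.42 FPKM in Tomato-positive and 4.44 FPKM in Tomato-negative cells (q = 0.491), both from the deposited table. The H4 extremes were rows of low level. Hist1h4f had 2.80 FPKM in Tomato-positive and 0.463 FPKM in Tomato-negative cells, a log2 ratio of 2.60 with q = 0.295. Hist4h4 had 0.918 FPKM in Tomato-positive and 2.32 FPKM in Tomato-negative cells, a log2 ratio of -1.34 with q = 0.467, both q-values from the authors' deposited table.

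Of the linker histones, H1, 4 of 6 rows were tested and 1 rose (25%, against 13.0% of all tested genes), and the median log2 ratio was 0.79 (0.50 with a pseudocount of 1). Hist1h1d stood at 1.59 FPKM in Tomato-positive and 0.748 FPKM in Tomato-negative cells, with a log2 ratio of 1.09 and q = 0.0144 in the authors' deposited table. The most abundant linker row, Hist1h1c, was at 50.5 FPKM in Tomato-positive and 58.9 FPKM in Tomato-negative cells, with q = 0.407 there. This row set the sum of the type, which was 62.0 FPKM in Tomato-positive and 65.2 FPKM in Tomato-negative cells. Without Hist1h1c the sums were 11.5 FPKM in Tomato-positive and 6.32 FPKM in Tomato-negative cells, a ratio of 1.82. Hist1h1e had 7.44 FPKM in Tomato-positive and 5.26 FPKM in Tomato-negative cells (q = 0.348), and Hist1h1b had 1.78 FPKM in Tomato-positive and 0.310 FPKM in Tomato-negative cells, a log2 ratio of 2.52 with q = 0.146, both q-values from the deposited table. Hist1h1a was listed at 0.699 FPKM in Tomato-positive cells and at 0 in Tomato-negative cells and was not tested. The testis gene Hist1h1t was listed at 0 in both.

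**Figure D2:**
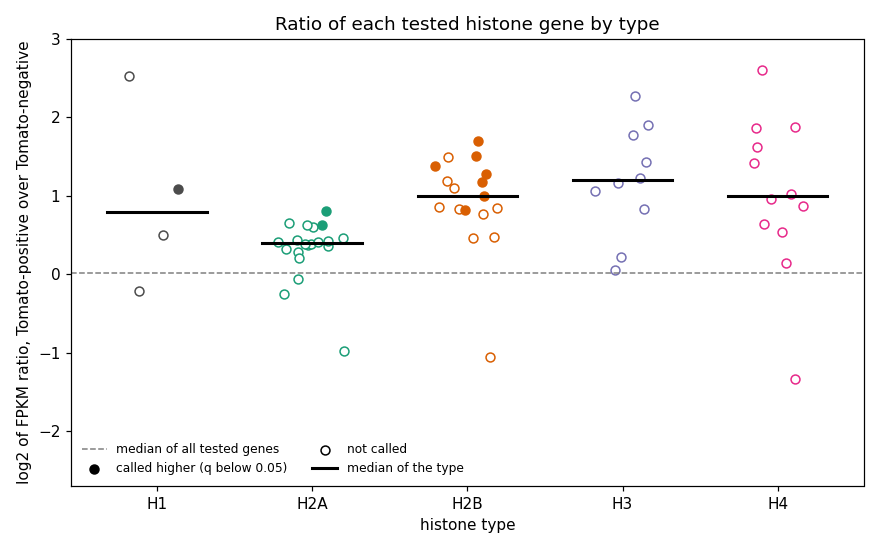
Log2 ratio of FPKM, Tomato-positive over Tomato-negative, for each tested row by histone type, with filled points for called rows, bars for the median of a type and a dashed line for the median of all tested genes. The median is 0.40 for H2A and 0.99 for H2B, and the H3 and H4 points reach as high as those of H2B without a filled one.

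By cluster, all 10 calls lay in Hist1 on chromosome 13, which holds 56 of the 71 rows and 52 of the 63 tested rows. The share called there was 19.2%, against 13.0% of all tested genes. In Hist1, 50 tested rows had the higher value in Tomato-positive cells, and the median log2 ratio was 0.84. Summed FPKM was 822 in Tomato-positive and 536 in Tomato-negative cells. In Hist2 on chromosome 3, 9 of 11 rows were tested, 6 had the higher value in Tomato-positive cells, and the median log2 ratio was 0.21, with sums of 64.7 FPKM in Tomato-positive and 55.5 FPKM in Tomato-negative cells. Hist3, on chromosome 11, had 1 tested row, Hist3h2a, with 8.53 FPKM in Tomato-positive and 7.42 FPKM in Tomato-negative cells. Hist4 is the single gene Hist4h4 on chromosome 6, given above. The difference between clusters was not tested. Within H2A the median was 0.42 in 15 Hist1 rows and 0.11 in 4 Hist2 rows, and within H3 it was 1.22 in 7 Hist1 rows and 0.21 in 3 Hist2 rows. The gene ID of the Hist2h2bb row has another name in GENCODE M21, Gm42743, a long noncoding RNA, and those of Hist2h2aa1 and Hist2h2aa2 carry each other's name.

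Within Hist1 the calls were spread along the cluster. Split where neighbouring rows lay over 100 kb apart, Hist1 fell into 5 blocks. The block from Hist1h2bl to Hist1h2br (mm9 chr13:21807631-21929399) held 19 tested rows, 4 of them called, all 19 with the higher value in Tomato-positive cells, at a median log2 ratio of 0.99. The block from Hist1h2ah to Hist1h2bj (mm9 chr13:22126981-22135545) held 5 rows with 1 call and a median of 0.86. The block from Hist1h4h to Hist1h1a (mm9 chr13:23622918-23856283) held 25 tested rows with 5 calls and a median of 0.84. The shares called in these blocks were 21.1%, 20% and 20%, against 13.0% of all tested genes. The testis genes Hist1h2ba and Hist1h2aa formed a block of their own with a median of 0.11. Hist1h2ba was at 9.27 FPKM in Tomato-positive and 6.67 FPKM in Tomato-negative cells, and Hist1h2aa was at 1.73 FPKM in Tomato-positive and 2.07 FPKM in Tomato-negative cells. Hist1h2al stood alone at a log2 ratio of 0.46.

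Many H2B and H2A genes lie head to head and share the DNA between their starts. There were 14 pairs less than 1000 bases apart in the deposited coordinates, 13 of them with both rows tested. In the 9 pairs with a RefSeq window for both genes, the windows lay on opposite strands and overlapped by 220 to 279 bases. The log2 ratio was higher for the H2B than for the H2A row in 11 of 13 pairs and lower in 2. The median log2 ratio over the pairs was 0.99 for H2B and 0.42 for H2A, and the median of the differences, H2B minus H2A, was 0.67. H2B was called in 6 pairs and H2A in 2 pairs, with both called in 1 pair, Hist1h2bq and Hist1h2ao. The widest gap in that direction was between Hist1h2bn at 1.51 and its neighbour Hist1h2ak at 0.42, a difference of 1.09. The exceptions were Hist1h2br at 0.77 beside Hist1h2ap at 0.81, and Hist2h2be at -1.06 beside Hist2h2ac at 0.28. The promoter windows of Hist1h2br and Hist1h2bq had the same sequence, and each gene lay 167 bases from its H2A neighbour. Of short transcript windows (described below), 88.7% of Hist1h2br, 97.3% of Hist1h2bq, 93.1% of Hist1h2ap and 93.5% of Hist1h2ao also occurred in another gene. The pairs Hist1h2br with Hist1h2ap and Hist1h2bq with Hist1h2ao may therefore not be separate readings. The H2A row had the higher FPKM in both fractions in 10 of the 13 pairs. Hist1h2bc, at 128 FPKM in Tomato-positive and 72.2 FPKM in Tomato-negative cells, was an exception, beside Hist1h2ac at 3.93 FPKM in Tomato-positive and 3.01 FPKM in Tomato-negative cells. These differences carry no test, and Hist1h2bm and Hist1h2aj share 1 joined locus.

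**Figure D3:**
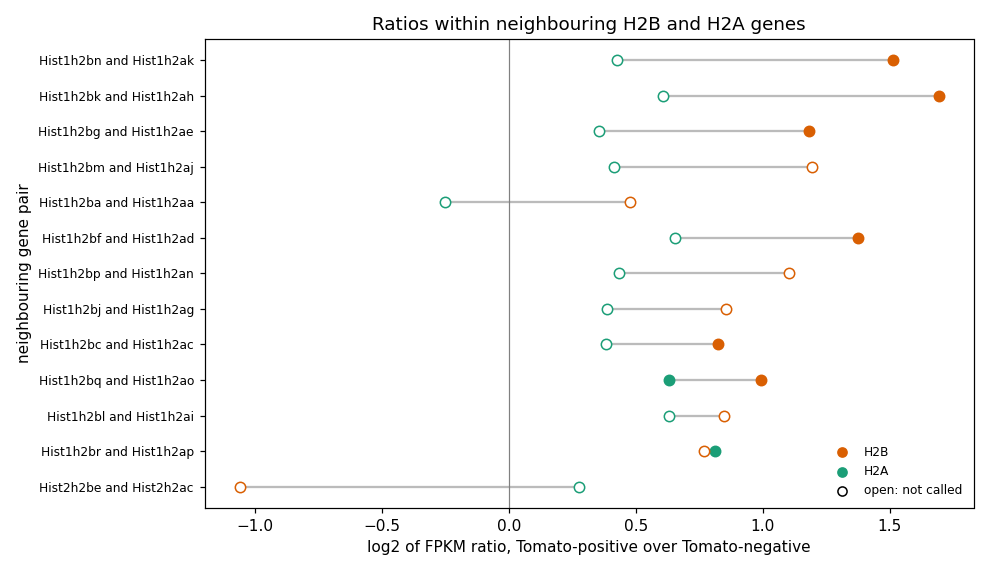
Log2 ratio of FPKM, Tomato-positive over Tomato-negative, for the H2B and H2A rows of the 13 neighbouring pairs with both tested, ordered by the difference, with filled points for called rows. The H2B point lies to the right of the H2A point in 11 pairs.

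Near-identical copies limit how far single rows can be read, since a read that fits several genes is divided or placed by the aligner. Over the GENCODE transcripts of all 71 rows, the median share of 50-base windows found in another gene was 49.5%. By type the median was 73.2% for H2A, 63.5% for H3, 43.8% for H2B, 39.5% for H4 and 1.13% for H1. Hist1h2bq shared 97.3% of its windows, Hist1h2ao 93.5% and Hist1h2ap 93.1%, so their separate values are uncertain. To a lesser degree this holds for the called rows Hist1h2bn at 86.4%, Hist1h2bk at 74.2%, Hist1h2bf at 65.8% and Hist1h2bg at 49.7%. Hist1h2bc shared 30.1%, Hist1h2be 16.3% and Hist1h1d 2.25%. Among the 32 tested rows with at least 50% of windows shared, 6 were called and the median log2 ratio was 0.79. Among the 31 rows below 50%, 4 were called and the median was 0.82. Within H2B these medians were 0.99 over 7 rows and 0.97 over 10 rows, and within H2A 0.43 over 14 rows and 0.24 over 6 rows. Within H3 they were 1.22 over 7 rows and 1.17 over 3 rows. The gap was widest within H4, at 1.74 over 4 rows with at least 50% shared and 0.75 over 8 rows below that. These gaps were not tested.

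**Figure D4:**
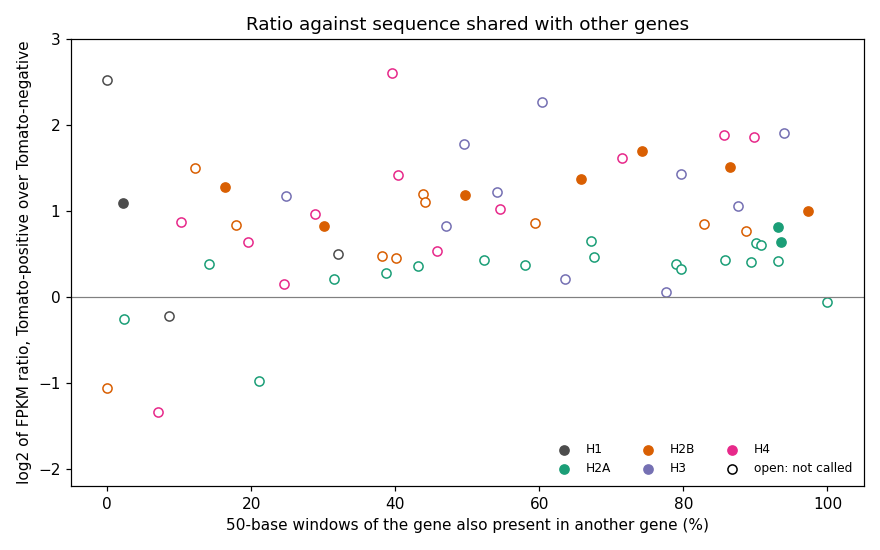
Log2 ratio of FPKM, Tomato-positive over Tomato-negative, against the percent of 50-base windows of a gene's transcripts that also occur in another gene, for each tested histone row, coloured by type and filled where called. Called rows lie at both ends of the axis, from Hist1h1d at 2.25% to Hist1h2bq at 97.3%.

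Transcript ends were set beside the ratios in the same way. Of 24 tested rows whose annotated transcript ends within 200 bases of the stem-loop, 5 were called and the median log2 ratio was 0.84. Of 15 rows with a transcript that runs further past it, 2 were called and the median was 0.50. Of 24 rows with no stem-loop in the annotated transcript, 3 were called and the median was 0.80. Many annotated transcripts hold little beyond the coding part, so a missing stem-loop there is no statement about the mRNA.

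Variant histones with names outside Hist1 to Hist4, many of which are made outside S phase or have special places in chromatin, were given by a list of 11, all tested. Of these 4 rose, or 36.4% against 13.0% of all tested genes, and none fell, against 14.2%. The list's median log2 ratio was 0.09. Cenpa, the centromeric H3, stood at 33.9 FPKM in Tomato-positive and 13.7 FPKM in Tomato-negative cells, with q = 0.000405 in the authors' deposited table. H1f0, a linker histone of differentiated cells, stood at 198 FPKM in Tomato-positive and 109 FPKM in Tomato-negative cells, with the same q. H2afz stood at 185 FPKM in Tomato-positive and 112 FPKM in Tomato-negative cells (q = 0.0199 in the deposited table). H2afx, the variant phosphorylated at DNA breaks, stood at 40.7 FPKM in Tomato-positive and 27.2 FPKM in Tomato-negative cells (q = 0.0145 in the deposited table). The H3 variants laid down outside replication were not called. H3f3b was at 263 FPKM in Tomato-positive and 279 FPKM in Tomato-negative cells (q = 0.825), and H3f3a was at 138 FPKM in Tomato-positive and 155 FPKM in Tomato-negative cells (q = 0.602), both q-values from the deposited table.

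Factors that transcribe, process and degrade histone pre-mRNA were given by a list of 19, of which 18 had a row and 17 were tested. Of these 3 rose and none fell, or 17.6% against the 13.0% of all tested genes, with a median log2 ratio of 0.31. Lsm11, of the U7 particle, was at 3.46 FPKM in Tomato-positive and 1.60 FPKM in Tomato-negative cells, with q = 0.00977 in the authors' deposited table. Zcchc6, a uridylyl transferase, was at 20.7 FPKM in Tomato-positive and 13.6 FPKM in Tomato-negative cells (q = 0.00573), and Eri1, an exonuclease that trims the histone 3′ end, at 9.89 FPKM in Tomato-positive and 6.84 FPKM in Tomato-negative cells (q = 0.0229), both q-values from the deposited table. The cap-binding genes Ncbp2, at 50.1 FPKM in Tomato-positive and 54.1 FPKM in Tomato-negative cells, and Ncbp1, at 47.8 FPKM in Tomato-positive and 52.4 FPKM in Tomato-negative cells, were not called. Slbp, named here after its values were seen because it binds the stem-loop, was at 21.7 FPKM in Tomato-positive and 22.9 FPKM in Tomato-negative cells, with q = 0.919 in the deposited table.

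Of 23 histone chaperones, which carry new histones to DNA, 0 were called in the authors' Cuffdiff table, where 13.0% of all tested genes were called higher and 14.2% lower. At an unadjusted p below 0.05, 3 of the 23 (Supt16h, Nap1l1 and Nap1l4) were higher and 0 lower, against 17.8% and 18.3% of all tested genes. Their median log2 ratio was 0.17. Ssrp1, of the FACT complex, was at 83.5 FPKM in Tomato-positive and 78.6 FPKM in Tomato-negative cells, and Ipo4, an importin for H3 and H4, at 73.8 FPKM in Tomato-positive and 87.8 FPKM in Tomato-negative cells.

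Cell cycle genes were set beside the histones because histone mRNA is made in S phase. Against 13.0% of all tested genes that rose and 14.2% that fell, 6 of 30 S phase genes rose (20%) and 1, Rfc3, fell, with a median log2 ratio of 0.25 and sums of 441 FPKM in Tomato-positive and 367 FPKM in Tomato-negative cells. Of 24 G2 and M phase genes 21 rose (87.5%) and none fell, with a median log2 ratio of 1.22 and sums of 435 FPKM in Tomato-positive and 194 FPKM in Tomato-negative cells. The median of the tested histones, 0.81, lay between those of these lists. Their share called higher, 15.9%, was below the 20% of the S phase and the 87.5% of the G2 and M phase list. The differences between these lists were not tested.

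**Figure D5:**
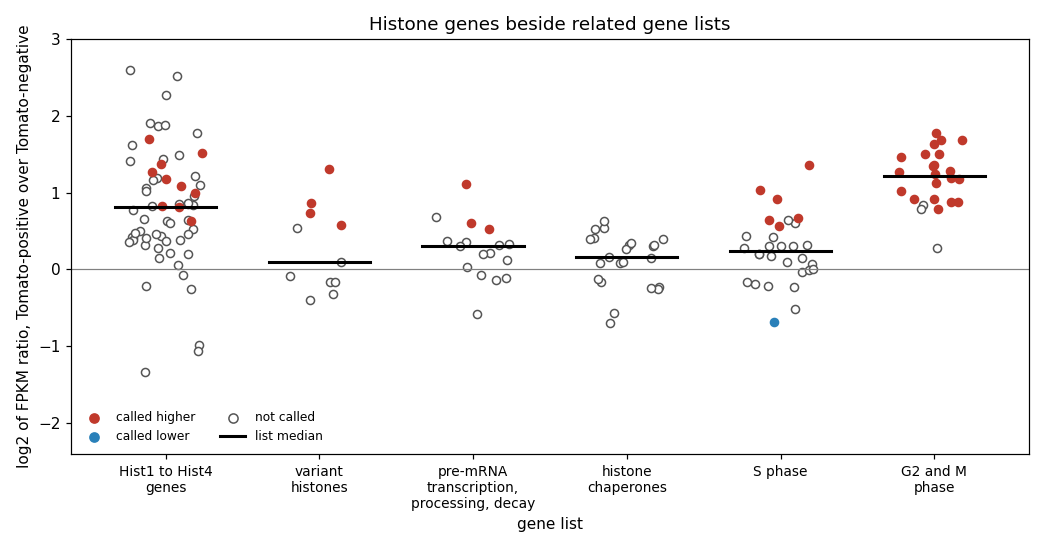
Log2 ratio of FPKM, Tomato-positive over Tomato-negative, for the tested histone rows and for the tested members of 5 related lists, with called genes filled and bars at the list medians. The median is 0.81 for the histones, 0.25 for the S phase list and 1.22 for the G2 and M phase list.

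Markers of other cell types also differed between the fractions, and their part in the histone values was not tested. Over all tested genes 13.0% were called higher and 14.2% lower. Called higher in Tomato-positive cells were 5 of 7 tested markers of stratified epithelium (sums 20052 FPKM in Tomato-positive and 4679 FPKM in Tomato-negative cells), 4 of 5 of neutrophils (6426 FPKM in Tomato-positive and 527 FPKM in Tomato-negative cells), 5 of 5 erythroid markers (6509 FPKM in Tomato-positive and 2012 FPKM in Tomato-negative cells) and 4 of 6 endothelial markers (41.7 FPKM in Tomato-positive and 28.1 FPKM in Tomato-negative cells). Called lower were 7 of 8 skeletal muscle markers (141 FPKM in Tomato-positive and 1866 FPKM in Tomato-negative cells), 8 of 8 of fibroblasts and pericytes (96.2 FPKM in Tomato-positive and 571 FPKM in Tomato-negative cells), 6 of 8 of macrophages and dendritic cells (107 FPKM in Tomato-positive and 363 FPKM in Tomato-negative cells) and 1 of 4 lymphocyte markers, Cd4 (sums 5.76 FPKM in Tomato-positive and 22.8 FPKM in Tomato-negative cells). The neutrophil sums were nearly all S100a8, and without it they were 43.6 FPKM in Tomato-positive and 6.73 FPKM in Tomato-negative cells. The granule genes Mpo, Elane and Ngp were not tested, and Camp was not called, at 0.645 FPKM in Tomato-positive and 0.954 FPKM in Tomato-negative cells. The epithelial gate marker Epcam was at 46.4 FPKM in Tomato-positive and 25.1 FPKM in Tomato-negative cells. Some uncalled markers went against the direction of their list. Epithelial Cdh1 was at 85.3 FPKM in Tomato-positive and 96.3 FPKM in Tomato-negative cells. Endothelial Vwf was at 9.52 FPKM in Tomato-positive and 13.7 FPKM in Tomato-negative cells. Macrophage Cd68 was at 24.2 FPKM in Tomato-positive and 17.0 FPKM in Tomato-negative cells.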

How the data were processed

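The submitters' processing notes name TopHat and Cuffdiff as tools and mm9 as the build. Their versions, the annotation and the strand setting were not given in the sources used here. The authors' deposited table, per the file headers, holds 1 FPKM per gene and fraction, a test statistic (a score, not used here), a p-value and a q-value. The deposited FPKM values join both samples of a fraction, so no SD, interval or depth is given. FPKM depends on transcript length and on the library total, and overlapping rows were joined into 1 locus (12 of the 63 tested histone rows). The deposited log2 folds were not used, and log2 ratios were computed from FPKM. Ratios in the results carry no pseudocount; the medians in the section on alternatives add a pseudocount of 1.

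The authors' q-value below 0.05 was the test, with no test of another kind. The genes named are all called histone rows, the 3 highest and the largest and smallest ratio of each type, called members of the 3 related lists with the 2 highest uncalled, and Bmi1. Exceptions are named for contrast and were chosen after their values were seen: pair neighbours, the testis genes, the rows with another GENCODE name, untested rows, Hist3h2a, Hist1h2al, Hist1h4m, Hist1h4n, Supt16h, Nap1l1, Nap1l4, Rfc3, Cd4, S100a8, Mpo, Elane, Ngp, Camp, Slbp, Epcam, Cdh1, Vwf and Cd68. The members and lists were chosen with earlier results of these data known. The pairs, blocks, shared windows, stem-loops, motifs and the 2-fold counts were added after the table was seen. Sequences came from RefSeq promoter windows (GRCm38.p6) and GENCODE M21 transcripts (GRCm38), matched by Ensembl ID for 59 rows and by symbol for 12, and no coordinates were converted. The stem-loop pattern held GG, TTT, AG and CC fixed, in that order. It allowed either pyrimidine between GG and TTT, any base between TTT and AG, and either purine between AG and CC. Other spellings could not be found by it. Counting was checked on simulated data. Python 3.11.15, pandas 2.3.3 and NumPy 2.4.6 were used.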

Additional observations from a re-analysis of the deposited data

How the results depend on the processing

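The counts of called genes depended on the threshold. The 10 histone rows called higher became 2 at q below 0.01 and 6 with a ratio of at least 2-fold. The 4 variant histones became 2 at q below 0.01 and 1 at 2-fold, and the 3 pre-mRNA factors became 1 at 2-fold. With a pseudocount of 0.1 in place of 1, the median log2 ratio was 0.79 instead of 0.58 over the histones, 0.74 instead of 0.50 for H1, 0.94 instead of 0.77 for H2B, 1.08 instead of 0.63 for H3 and 0.96 instead of 0.77 for H4. A smaller pseudocount shrinks ratios of low values less. The order of the types depends on this choice: with a pseudocount of 1 the H3 median lies below those of H2B and H4. Of 62 alternatives to 11 results, 52 left a count within 1.5 times or a median within 0.1, a limit set after the table was seen, 10 moved and 0 reversed. Part of this tally was fixed in advance, since counts of 0 could not rise under stricter limits. A limit of at least 1 FPKM in the higher fraction removed no tested histone row, so it could not move the histone counts or medians. Centring and scaling shifted log2 ratios by less than 0.1, so medians under these settings could not count as moved. Scaling without the 666 Mir rows lowered log2 ratios by 0.06, and without those and 20 mmu-mir rows, an alternative added after seeing the data, by 0.03. Together these rows held 37.2% of the FPKM sum in Tomato-positive and 35.4% in Tomato-negative cells. No paired analysis was possible because the deposited values join the samples of each fraction, and leaving out a replicate could not be run for the same reason.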
